A study of Rattus norvegicus with 4 samples.

Results

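The SLC22 genes encode carriers of organic anions, organic cations and zwitterions, and 11 of them were described here across choroid plexus (CP), sorted CP epithelial cells and kidney proximal tubule of the rat. They were chosen as the genes with a name starting SLC22A in the study's lists of plasma membrane transporters and pumps for the male CP, the sorted cells and the proximal tubule, which hold 7, 7 and 8 of them. The 3 lists together hold 263 genes, and each library was quantified over 32883 Ensembl gene IDs. The lists keep genes at or above 0.5 TPM (an abundance per transcript length, scaled to an equal total for every library), so the presence of a gene in a list is part of the choice and not a result. A RefSeq table of the rat names 21 protein-coding SLC22A genes with a plain number, of which 11 are these members, and for the other 10 no ID was paired with a name here.

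All rats were 9-week-old Sprague Dawley animals. The whole-tissue libraries came from CP of the lateral and 4th ventricles, pooled from 5 males for the male CP and from 5 females for the female CP. For the FACS library, cells from the CP of 10 males were dissociated with collagenase, labelled with an antibody to an extracellular part of NKCC1 and sorted. For the proximal tubule library, kidney tissue of the males was digested with collagenase and pronase and tubules were picked by hand under a microscope, with 5 animals in the pool. Each condition has 1 library, so no spread between animals could be given, no difference has a replicate check and no test was made. The comparisons address how the sorted epithelium, the female CP and another fluid-transporting epithelium differ from the male CP.

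SLC22 carriers are polyspecific membrane proteins of epithelia that face blood, urine or cerebrospinal fluid (CSF). The organic anion transporters (OATs) take up anionic drugs and metabolites, mostly in exchange for dicarboxylates, the organic cation transporters (OCTs) carry cationic drugs and monoamines down the electrochemical gradient, and the OCTN carriers move carnitine. In the proximal tubule they are known for secreting drugs into urine and for reabsorbing urate and carnitine, and in the CP for clearing organic anions from the CSF. SLC22A17, named brain-specific organic cation transporter (BOCT), has also been described as a receptor for lipocalin-2, and its transported substrate is not settled.

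The deposited values hold no sequence. To show the region in front of members of each tissue, the 250 bases before the RefSeq start are printed 5′ to 3′ for SLC22A17 and SLC22A8, the highest members in the CP libraries, and for SLC22A2 and SLC22A12, which had counts in the proximal tubule library and none in the male CP library. The windows come from RefSeq on the GRCr8 build, which is not the build of the deposited values, and 9 of the 11 members were in that table, SLC22A6 not among them. Capitals mark the 4 motifs that were searched on both strands, where matches may overlap. The half-site of the kidney and liver factor HNF1 was searched as GTTAAT. The core of the box that places the start of transcription was searched as TATAA. The box bound by Sp factors at many promoters was searched as GGGCGG and is called the GC box below. The core bound by OTX factors of the CP was searched as TAATCC.
Slc22a17, GRCr8 chr15:32358781-32359030, minus strand: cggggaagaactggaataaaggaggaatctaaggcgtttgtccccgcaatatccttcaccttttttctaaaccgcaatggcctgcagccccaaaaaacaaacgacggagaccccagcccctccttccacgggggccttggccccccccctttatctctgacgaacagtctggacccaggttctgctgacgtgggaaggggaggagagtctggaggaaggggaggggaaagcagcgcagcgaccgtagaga
Slc22a8, GRCr8 chr1:214927034-214927283, plus strand: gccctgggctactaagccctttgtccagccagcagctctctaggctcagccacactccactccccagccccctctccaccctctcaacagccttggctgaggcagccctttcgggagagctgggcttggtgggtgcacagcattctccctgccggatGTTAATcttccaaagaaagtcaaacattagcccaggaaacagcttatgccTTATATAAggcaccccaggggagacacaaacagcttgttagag
Slc22a2, GRCr8 chr1:50711020-50711269, minus strand: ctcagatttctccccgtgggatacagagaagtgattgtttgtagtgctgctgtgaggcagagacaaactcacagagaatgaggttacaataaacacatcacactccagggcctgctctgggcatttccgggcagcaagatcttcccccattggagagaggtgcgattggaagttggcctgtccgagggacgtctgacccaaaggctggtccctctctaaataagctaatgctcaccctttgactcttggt
Slc22a12, GRCr8 chr1:213281381-213281630, minus strand: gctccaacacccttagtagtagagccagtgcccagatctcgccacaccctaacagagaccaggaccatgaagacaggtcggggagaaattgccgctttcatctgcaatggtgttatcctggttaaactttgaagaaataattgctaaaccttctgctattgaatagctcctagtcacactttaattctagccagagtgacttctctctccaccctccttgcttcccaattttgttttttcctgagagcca
Of these 4 windows, only that of Slc22a8 held a searched motif, with 1 HNF1 half-site 93 bases before the start and 2 overlapping TATA box cores that begin 43 and 40 bases before it. Among 33469 windows of the same length in the table, 6.45% held the HNF1 half-site, 24.0% the TATA box core, 30.5% the GC box and 6.34% the OTX core. Of the windows not printed, those of Slc22a5, Slc22a15 and Slc22a23 held 3, 2 and 1 GC boxes, and those of Slc22a7 and Slc22a18 held none of the 4 motifs. The GC content was 57.6% for Slc22a17, 56.0% for Slc22a8, 51.2% for Slc22a2 and 46.0% for Slc22a12, against a median of 51.2% over all windows. A match is a description of the letters in the window, and nothing on binding was measured.

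The libraries held between 23873318 and 28324976 expected counts. The 13 mitochondrially encoded genes took 4.32 to 5.34% of the counts in the 3 CP libraries and 70.7% in the proximal tubule library, which left 7352952 counts outside them there, so all proximal tubule levels below are TPM rescaled without these genes. The proximal tubule library stood apart in a second way, as only 2.65% of its genes with a count had 1 to 9 counts, against 10.3 to 15.8% in the CP libraries, and 26.2% had 30 to 69 counts, against 6.96 to 8.42%. Its low counts centred on 46 and not on the lowest values as in the CP libraries, and intervals for this library are therefore also given with counts taken in steps of 46. The centre was 52 among genes under the median effective length and 48 among those at or over it, and only steps of 46 were used. What set this spacing was not tested. In that library 157 of the 263 transporters and pumps were at 0, against 18, 18 and 27 in the male CP, female CP and FACS libraries. The 9 named proximal tubule markers were all present in it, summed to 11193 TPM, of which SLC7A13 held 7371 TPM. They summed to 808, 731 and 747 TPM in the male CP, female CP and FACS libraries. Of these sums AQP1, also on the list of CP markers, held 787, 712 and 732 TPM, against 47.7 TPM in the proximal tubule. The CP marker TTR had 1 count in the proximal tubule library against 2507780 in the male CP. Markers of other nephron segments summed to 114 TPM in the proximal tubule library and to at most 0.578 TPM in the CP libraries. In the FACS library all 12 epithelial markers were present, of which 2 were higher than in the male CP on the TPM scale and 10 lower. The median of all 14024 genes tested in this comparison was lower too, at -0.58 on the log2(TPM + 1) scale. The falls of the markers differed in size, and AQP1 had 687 TPM against 721 TPM. TTR had 389655 TPM against 238565 TPM and FOLR1 2725 TPM against 2058 TPM, while SLC4A5 had 314 TPM against 881 TPM, CLIC6 848 TPM against 1302 TPM and KCNJ13 685 TPM against 1372 TPM. The 3 named immune markers summed to 2820 TPM in the FACS library, 402.5 TPM in the male CP and 239.6 TPM in the female CP, with CD74 as the largest and CSF1R and CX3CR1 present in each. Endothelial markers (5 named) summed to 186, 155 and 271 TPM in the male CP, female CP and FACS libraries, mesenchymal and mural markers (4 named) to 377, 281 and 404 TPM, and the erythroid marker HBB reached 1336, 724 and 293 TPM, all without mitochondrially encoded genes. PLVAP held 190 TPM of the endothelial sum in the FACS library. From the male CP to the FACS library, DCN went from 111 to 255 TPM and PDGFRB from 22.3 to 24.6 TPM. PDGFRA went from 91.0 to 52.5 TPM and RGS5 from 153 to 71.9 TPM, so the mesenchymal and mural markers did not share a direction. Fewer cells of a type and less RNA per cell cannot be told apart in such pools.

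SLC22A17 (ENSRNOG00000016414) was the most abundant transporter of all those listed in each of the 3 CP libraries and had no count in the proximal tubule library. It reached 2396 TPM in the male CP, 2477 TPM in the female CP and 2642 TPM in the FACS cells. The values rest on 121214 expected counts in the male CP (95% exact Poisson interval 120533 to 121898), 122994 in the female CP and 140945 in the FACS cells, and all intervals here cover counting error only. Among all gene IDs it held place 27, 27 and 22 by TPM in the male CP, female CP and FACS libraries. The next transporter was ATP1B1, the β1 subunit of the Na+/K+-ATPase, and SLC22A17 exceeded it by 1.54-fold in the male CP, 1.77-fold in the female CP and 2.42-fold in the FACS cells.

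**Figure D1:**
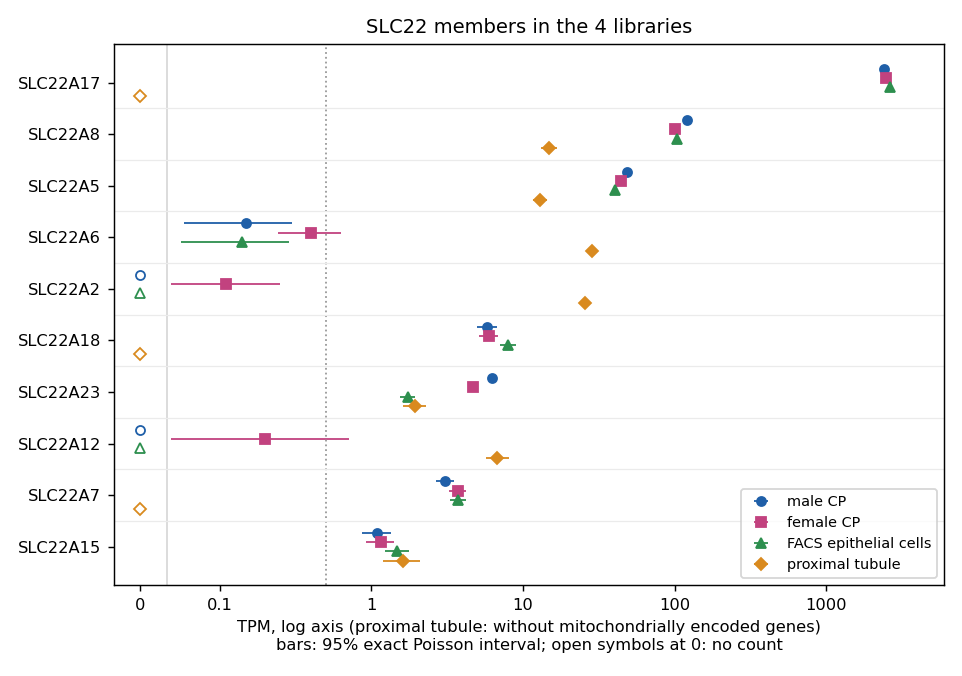
TPM of 10 SLC22 members (rows) in the male CP, female CP, FACS and proximal tubule libraries on a log axis, with 95% exact Poisson intervals as bars, lower bounds cut at the break, open symbols for libraries with no count and a dotted line at 0.5 TPM. SLC22A17 lies above 2000 TPM in the 3 CP libraries and at 0 in the proximal tubule, while SLC22A6, SLC22A2 and SLC22A12 lie under 0.5 TPM in the CP libraries and between 6.78 and 28.6 TPM in the proximal tubule.

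Of the organic anion transporters, SLC22A8 (ENSRNOG00000018086, OAT3, an uptake carrier for anionic drugs and prostaglandins) was the one with a high level in the CP, and SLC22A6 (ENSRNOG00000018215, OAT1, its neighbour in the genome) the one with the highest level in the proximal tubule. SLC22A8 had 121 TPM in the male CP, 100.4 TPM in the female CP and 102.95 TPM in the FACS cells, from 5588, 4549 and 5010 expected counts, and 14.9 TPM from 291 counts in the proximal tubule. SLC22A6 had 0.15 TPM in the male CP, 0.40 TPM in the female CP and 0.14 TPM in the FACS cells, from 7, 19 and 7 counts, and 28.6 TPM from 584 counts in the proximal tubule. The 2 genes thus stood in opposite order in the 2 tissues, although with counts taken in steps of 46 their intervals in the proximal tubule overlapped. In the RefSeq table Slc22a25 overlaps both, and since the strandedness of the libraries is not given in the sources used here, reads of overlapping genes may not be told apart.

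SLC22A7 (ENSRNOG00000018420, OAT2, a carrier of anions and nucleotides) was low in the CP, at 3.06 TPM in the male CP, 3.71 TPM in the female CP and 3.72 TPM in the FACS cells, from 211, 251 and 271 counts, and had no count in the proximal tubule. Crip3 overlaps it in the RefSeq table. SLC22A12 (ENSRNOG00000021108, URAT1, the urate exchanger of the luminal membrane) had no count in the male CP or the FACS cells, 2 counts in the female CP and 134 counts in the proximal tubule, where it reached 6.78 TPM.

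The organic cation transporter SLC22A2 (ENSRNOG00000016625, OCT2, the uptake step of renal cation secretion) was listed for the proximal tubule alone, as were SLC22A6 and SLC22A12. Their higher level there than in the male CP and the FACS cells was therefore part of the choice and not a result. SLC22A2 had 25.5 TPM from 517 counts in the proximal tubule, 5 counts in the female CP and none in the male CP and the FACS cells. In the male CP, 3 counts would have been 0.0799 TPM.

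SLC22A5 (ENSRNOG00000008432, OCTN2, the Na+-coupled carnitine transporter) was the third member of the CP by TPM and the one with both tissues above 10 TPM beside SLC22A8. It had 48.5 TPM in the male CP, 44.6 TPM in the female CP and 40.4 TPM in the FACS cells, from 3204, 2901 and 2779 counts, and 12.9 TPM from 335 counts in the proximal tubule. Of the 10 genes listed for carnitine handling, 2 had a paired ID. SLC25A20, the mitochondrial carnitine-acylcarnitine carrier, had 74.7 TPM in the male CP, 69.1 TPM in the female CP, 70.5 TPM in the FACS cells and 9.04 TPM in the proximal tubule. ALDH9A1, an enzyme of carnitine synthesis, had 72.7, 69.0, 34.9 and 20.4 TPM in the same order.

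The remaining members are less well characterised carriers with low levels. SLC22A23 (ENSRNOG00000017210), an orphan carrier, had 6.28 TPM in the male CP, 4.67 TPM in the female CP and 1.73 TPM in the FACS cells, from 982, 718 and 287 counts, and 1.94 TPM from 129 counts in the proximal tubule. SLC22A18 (ENSRNOG00000020562), an orphan carrier in an imprinted gene cluster, had 5.81, 5.92 and 7.97 TPM in the male CP, female CP and FACS libraries, from 180, 180 and 259 counts, and no count in the proximal tubule. SLC22A15 (ENSRNOG00000033051), a carrier of zwitterions, had 1.09, 1.15 and 1.48 TPM in the 3 CP libraries, from 83, 86 and 119 counts, and 1.61 TPM from 52 counts in the proximal tubule. Among these low members, the FACS library was the lowest of the CP libraries for SLC22A23 and the highest for SLC22A18 and SLC22A15.

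Summed over the members, SLC22 transcripts reached 2581 TPM in the male CP, 2638 TPM in the female CP, 2800 TPM in the FACS cells and 102.7 TPM in the proximal tubule. SLC22A17 held 92.8% of the sum in the male CP, 93.9% in the female CP and 94.3% in the FACS cells, and exceeded SLC22A8, the next member, by 19.8-fold, 24.7-fold and 25.7-fold. Of what remained, SLC22A8 and SLC22A5 held 91.2%, 90.0% and 90.4%. The members made up 15.7% of the summed TPM of the listed transporters and pumps in the male CP, 17.9% in the female CP, 22.0% in the FACS cells and 0.729% in the proximal tubule. The CP sum was thus nearly that of 1 gene, while in the proximal tubule SLC22A6 and SLC22A2 together held 52.7% of it.

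Within the male CP the members ranked SLC22A17, SLC22A8, SLC22A5, SLC22A23, SLC22A18, SLC22A7, SLC22A15 and SLC22A6, and the counting intervals of SLC22A23 and SLC22A18 overlapped. In the female CP SLC22A18 ranked above SLC22A23, and the intervals of SLC22A6, SLC22A12 and SLC22A2 overlapped from one to the next. In the FACS cells SLC22A23 ranked below SLC22A7, with overlap between SLC22A23 and SLC22A15. In the proximal tubule the order was SLC22A6, SLC22A2, SLC22A8, SLC22A5, SLC22A12, SLC22A23 and SLC22A15, and with its counts taken in steps of 46 every pair of neighbours overlapped. The upper 3 places were therefore the same in the 3 CP libraries and differed from their neighbours by more than counting error. In the proximal tubule, neighbours in the order were not resolved at that step size. The step intervals of SLC22A6 (15.1 to 49.2 TPM) and SLC22A2 (12.9 to 45.4 TPM) did lie above those of SLC22A23 (0.369 to 5.83 TPM) and SLC22A15 (0.0583 to 8.21 TPM).

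The FACS cells were compared with the male CP to see which members were as abundant in the sorted epithelium as in whole tissue. A gene was called higher or lower at a change of at least 2-fold on the log2(TPM + 1) scale, among genes at or above 0.5 TPM in either library. Of the 7 members tested, 0 were called higher and 1 lower, against 4.61% of 14024 genes called higher and 25.5% called lower. The member called was SLC22A23, at -1.42 on the log2(TPM + 1) scale, with a TPM ratio of 0.275 (95% exact conditional binomial interval 0.241 to 0.315). With median-of-ratios scaling SLC22A23 stood at -0.95 and was no longer called, and SLC22A18 was called higher at 1.01. SLC22A17 was 1.10 times its male CP level (1.09 to 1.11). The TPM ratio of SLC22A18 was 1.37 (1.13 to 1.67), that of SLC22A15 1.36 (1.02 to 1.82) and that of SLC22A7 1.22 (1.01 to 1.46).

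SLC22A8 and SLC22A5 stood at 0.851 (0.819 to 0.884) and 0.833 (0.792 to 0.877) of their male CP levels on the TPM scale, and above them with scaled counts (CPM), FPKM, median-of-ratios scaling or without the 10 highest genes of each library. The median gene lay at -0.58 on the log2(TPM + 1) scale in this comparison, beside the higher TTR level given above, and the median of the 7 members at 0.14. Relative to the median gene, SLC22A17 stood 0.72 higher, SLC22A8 0.35, SLC22A5 0.32, SLC22A7 0.80, SLC22A15 0.83 and SLC22A18 0.98 higher, and SLC22A23 at -0.83. Long genes were lower in this library, with a median of -0.46 for genes under 1000 bases of effective length and -0.86 for those of 6000 bases or more, and SLC22A23 has an effective length of 6385 bases in the male CP. The immune marker sum was also higher in the FACS library, as given above, and the part of either in these values was not tested.

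The female CP was compared with the male CP to ask whether their levels differ between the sexes. Of the 7 members tested, 0 were called higher and 0 lower, against 0.44% and 0.959% of 13869 genes, so a count of 0 is what the background gives. The log2(TPM + 1) differences ran from -0.36 for SLC22A23 to 0.21 for SLC22A7, with a median of 0.02 against -0.16 for all genes. SLC22A17 was 1.03 times its male level (1.03 to 1.04), SLC22A8 0.830 (0.798 to 0.863) and SLC22A23 0.744 (0.675 to 0.820). SLC22A5 was at 0.919 (0.874 to 0.967) on the TPM scale, and above the male level with FPKM and median-of-ratios scaling. The ratio of SLC22A18 was 1.02 (0.825 to 1.26) and that of SLC22A15 1.06 (0.771 to 1.44), so that no difference of these was detectable at this depth. Here too long genes were lower, from a median of -0.03 under 1000 bases to -0.31 at 6000 bases or more, and its part in the SLC22A23 value was not tested. Below the cut-off, SLC22A6 had 19 counts in the female and 7 in the male library, a ratio of 2.67 (1.11 to 7.79). Sex and pool cannot be told apart with 1 pool for each.

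**Figure D2:**
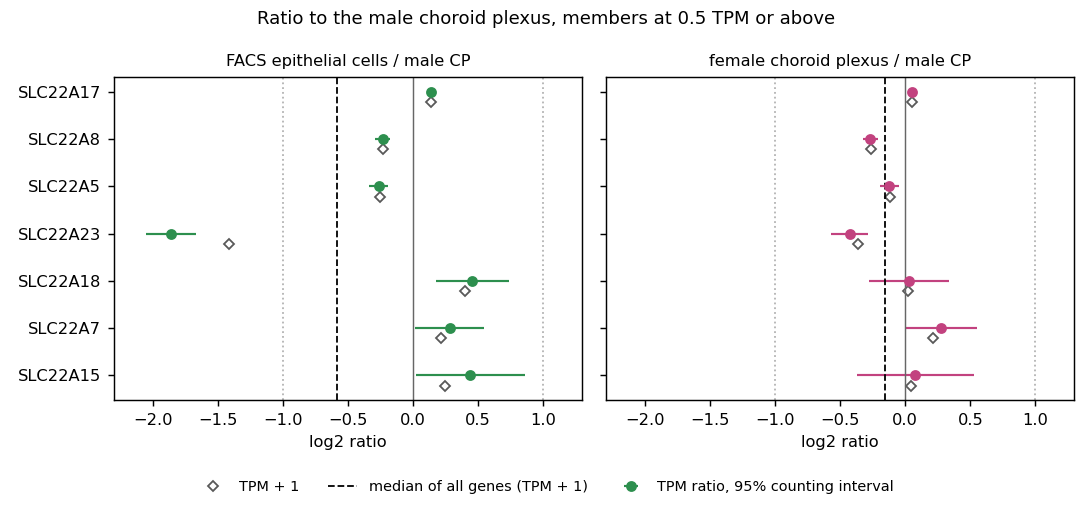
Log2 ratio of the FACS library (left) and the female CP library (right) to the male CP for the 7 members at or above 0.5 TPM, as TPM ratios with 95% counting intervals (filled points), as log2(TPM + 1) differences (open diamonds) and with the median of all genes on that second scale (dashed line), where dotted lines mark 2-fold. SLC22A23 in the FACS cells, at -1.42, is the single diamond beyond a dotted line, and the other 6 members lie to the right of the dashed line on the left panel.

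The proximal tubule was compared with the male CP as another epithelium of high fluid transport. Since a member entered through the library in which it was at or above 0.5 TPM, the 4 members listed through the proximal tubule alone had to be higher there, and the members listed through the CP alone higher in the CP. With that fixed, 4 of the 11 members were called higher in the proximal tubule and 6 lower, beside 12.1% and 71.0% of 14227 genes. The median of the members was -1.42 on the log2(TPM + 1) scale and that of all genes -2.27, and nothing is read from these counts.

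SLC22A17 was at least 18702-fold lower in the proximal tubule library, taking 3 counts as the floor, and at least 407-fold lower if the floor is 3 steps or 138 counts. On the first floor SLC22A18 was at least 27.6-fold and SLC22A7 at least 32.6-fold lower. The lower limit of the counting interval was 15209-fold for SLC22A17, 22.2-fold for SLC22A18 and 26.3-fold for SLC22A7. For SLC22A18 and SLC22A7, however, 3 steps would have been 10.6 TPM and 4.71 TPM. These lie above their male CP levels of 6.34 TPM and 3.34 TPM on this scale, so that with steps no difference of these members was detectable. SLC22A8 was 8.87-fold lower (7.89 to 10.0, or 4.16 to 23.4 with counts in steps) and SLC22A5 4.10-fold lower (3.66 to 4.60, or 2.01 to 9.99 in steps). SLC22A23 was 3.54-fold lower (2.95 to 4.30, or 1.17 to 18.6 in steps). These 3 members thus kept an interval below the male CP level on the TPM scale under both readings of the counts. The 129 counts of SLC22A23 there were nevertheless fewer than the 138 counts taken as the floor in steps. With median-of-ratios scaling SLC22A8 stood at -1.997, while SLC22A5 at -0.89 and SLC22A23 at -0.59 were no longer called lower.

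SLC22A6 was 175-fold higher in the proximal tubule (87.0 to 451, or 66.5 to 536 in steps). SLC22A2 and SLC22A12 had no count in the male CP, and against a floor of 3 counts there SLC22A2 was at least 319.6-fold and SLC22A12 at least 61.0-fold higher. These folds take the proximal tubule counts as exact. The lower limit of the counting interval was 259-fold for SLC22A2 and 49.0-fold for SLC22A12, and 219.7-fold and 24.7-fold with the proximal tubule counts in steps. The TPM ratio of SLC22A15 was 1.36 (0.935 to 1.93, or 0.0485 to 7.11 in steps), and its direction also depended on the scale. With a pseudocount of 1 its log2 ratio was 0.26, with -0.53 if mitochondrially encoded genes were kept, -0.22 with FPKM, 0.98 with CPM and 1.04, past the 2-fold call, with median-of-ratios scaling.

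**Figure D3:**
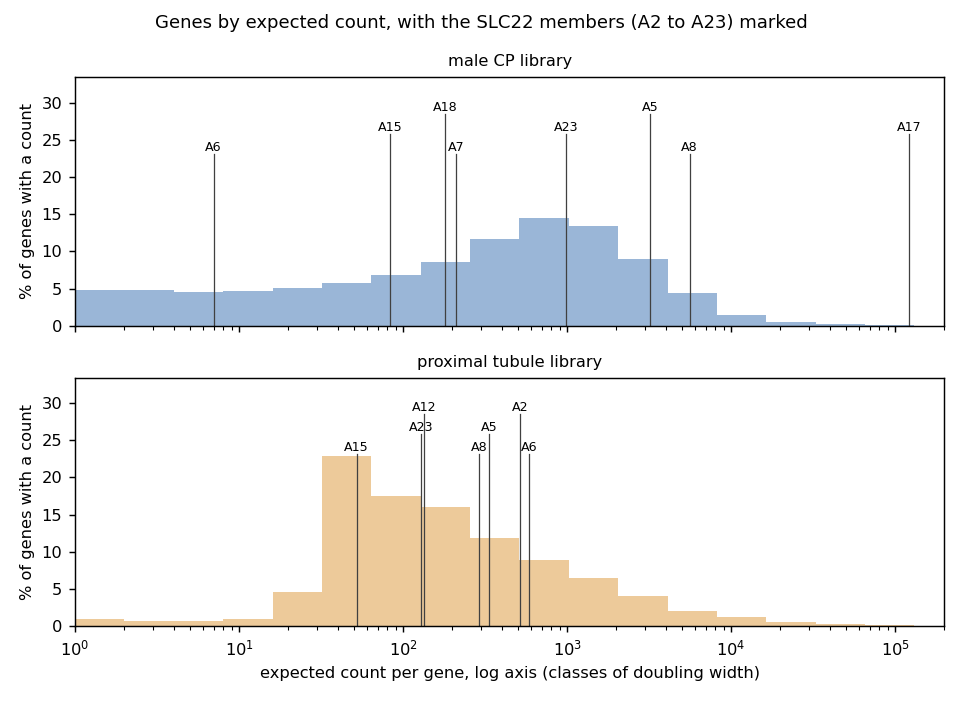
Percent of genes with a count (vertical axis) by expected count per gene (horizontal log axis, classes that double in width) in the male CP library (top) and the proximal tubule library (bottom), with the counts of the SLC22 members marked by lines. In the proximal tubule 22.9% of the genes fall in the class from 32 to 64 counts, against 5.73% in the male CP, and the members marked there lie between 52 and 584 counts.

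Other carriers of organic ions and drugs gave a frame for the members, with 20 of 27 listed genes paired with an ID. In the FACS cells 0 of the 18 tested were called higher and 2 lower, ABCC1 at -1.81 and ABCC4 at -1.31 on the log2(TPM + 1) scale, beside 4.61% and 25.5% of all genes. Both are ATP-driven efflux pumps for organic anions, and both had at least 904 counts in each CP library. In the female CP 0 of 16 were called in either direction, beside 0.44% and 0.959% of all genes. In the proximal tubule 3 of 18 were called higher and 10 lower, beside 12.1% and 71.0% of all genes, with a median of -2.02 against -2.27.

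SLCO1C1, a carrier of thyroxine and organic anions, was the highest of these in the CP, with 301.4 TPM in the male CP, 278 TPM in the female CP and 216 TPM in the FACS cells, and no count in the proximal tubule. SLC29A4, a monoamine transporter that carries organic cations, followed with 109.7, 87.8 and 99.7 TPM and no count in the proximal tubule. The efflux pump ABCG2 was the opposite case, with 165 TPM in the proximal tubule and 0.73 TPM in the male CP, both without mitochondrially encoded genes. SLCO4C1, a renal organic anion transporter, had 7.71 TPM and 0.02 TPM, and the cation extruder SLC47A1 4.66 TPM in each tissue on the scale without mitochondrially encoded genes. The sum over the 20 genes was 590.0 TPM in the male CP and 204 TPM in the proximal tubule on that scale.

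**Figure D4:**
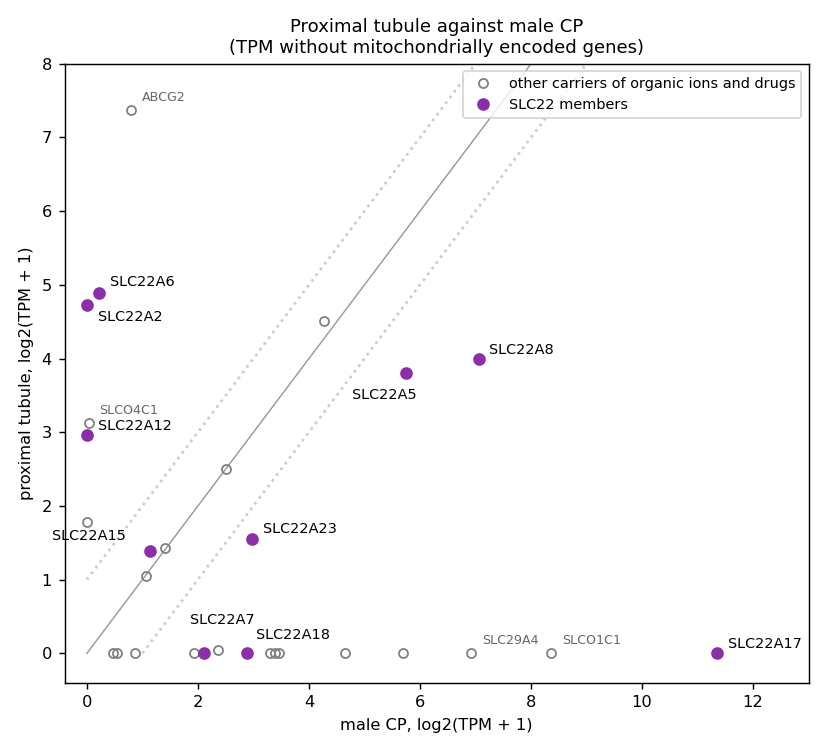
Proximal tubule level (vertical) against male CP level (horizontal) on the log2(TPM + 1) scale without mitochondrially encoded genes for 10 SLC22 members (filled) and 20 other carriers of organic ions and drugs (open), with the line of equality and dotted lines at 2-fold. SLC22A6, SLC22A2, SLC22A12, ABCG2 and SLCO4C1 lie along the vertical axis, SLC22A17, SLC22A18, SLC22A7, SLCO1C1 and SLC29A4 along the horizontal axis, and SLC22A8, SLC22A5 and SLC22A23 between the lower dotted line and that axis.

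Several OATs and OCTNs bind PDZ scaffolds at the membrane, and 3 of 5 listed scaffold genes had a paired ID. EZR, the membrane linker ezrin, had 667 TPM in the male CP, 630 TPM in the female CP and 308 TPM in the FACS cells, and SLC9A3R1, the scaffold NHERF1, had 127, 129 and 51.5 TPM. PDZD11 had 119, 92.0 and 46.0 TPM. All 3 were called lower in the FACS cells and none in the female CP, and in the proximal tubule 1 was called higher, PDZD11 at 1.10, and 2 lower. Of the 2 carnitine genes, ALDH9A1 was called lower in the FACS cells at -1.04, none was called in the female CP, and both were called lower in the proximal tubule. Over all genes, 25.5% were called lower in the FACS cells and 71.0% in the proximal tubule, and 0.959% in the female CP. None of the 3 genes listed for the lipocalin-2 pathway had a paired ID.

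Among 138 transporters and pumps with at least 10 TPM in some library, the profiles nearest to SLC22A17 by Euclidean distance over the 4 libraries were those of FXYD1, a regulator of the Na+/K+-ATPase, at 1.22, the anion exchanger gene SLC4A2 at 1.74 and the sulphate carrier gene SLC13A4 at 2.02. All 3 had no count in the proximal tubule and at least 474 TPM in each CP library on the scale without mitochondrially encoded genes. Between genes at 0 in the proximal tubule this distance depends mostly on the CP level, so it picks genes that are also abundant in the CP. Nearest to SLC22A8 were SLC20A1 at 0.22, ABCB6 at 0.28 and SLC7A8 at 0.34, and nearest to SLC22A5 were SLC44A1 at 0.24, SLC50A1 at 0.30 and NIPA2 at 0.46. With a Pearson distance 1 of the 3 genes nearest to SLC22A17 stayed, SLC4A2, and none of those nearest to the other two. Without the proximal tubule library 0 of the 3 nearest genes stayed for SLC22A17, SLC22A8 or SLC22A5. On the same scale SLC22A17 went from 2614 TPM in the male CP to 2815 TPM in the FACS cells. Its 3 neighbours went the other way, FXYD1 from 1174 to 889 TPM, SLC4A2 from 697 to 684 TPM and SLC13A4 from 684 to 474 TPM. Over 4 libraries, of which 3 are CP and 1 stands apart in its counts, these neighbours are a description.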

How the data were processed

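RNA of 4 pooled rat samples was sequenced as paired-end reads, and the authors mapped them to Rnor_6.0 (Ensembl release 103) with STAR 2.7.2a and quantified them with RSEM 1.3.3. The deposited values are, per gene ID, the expected count, TPM, FPKM and effective length. Expected counts are RSEM estimates and were rounded for the intervals, and the deposited FPKM entered one alternative. The authors dropped the mitochondrial genome from the reference before comparing tubule and CP, and here its 13 genes were taken out of the deposited TPM instead, with the remainder scaled to 1000000. Log2 ratios used a pseudocount of 1, and genes at or above 0.5 TPM in either library were counted as called at 2-fold. Exact Poisson and exact conditional binomial (Clopper-Pearson) intervals at 95% and a floor of 3 counts cover counting error only. PCR copies were not separated from molecules.

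Gene names came from the study's supplementary lists, which pair 2452 of 32883 IDs, and 0 IDs matched the RefSeq table. The members, gene lists and markers were chosen with earlier results of these data known. All genes of the named lists with a paired ID entered the counts, but not all are printed. The counts and sums cover all 11 members, of which 1 is not reported here by name or value. The alternatives were pseudocounts of 0.1 and 0.5, cut-offs of 0.1, 1 and 5 TPM or 10 counts, CPM outside mitochondrially encoded genes, FPKM, median-of-ratios scaling, removal of the 10 highest genes, and the opposite handling of mitochondrially encoded genes. For the nearest profiles the alternatives were a Pearson distance and leaving out the proximal tubule library. Steps of 46 counts and length bins were added after the data had been seen. Strandedness is not given in the sources used here. Python 3.11.15, numpy 2.4.6, pandas 2.3.3, scipy 1.17.1 and matplotlib 3.10.9 were used. Simulated counts were used to check the log2 ratios, the counting intervals of ratios and the search for the centre of the low counts. The intervals in steps of 46 and the other settings were not checked in this way.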

Additional observations from a re-analysis of the deposited data

How the results depend on the processing

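With 1 pooled library per condition, no replicate could be left out and spread between animals is unknown. No paired analysis was possible because each condition has 1 library. No member called at 2-fold reversed under any of the 7 scale and pseudocount settings. Median-of-ratios scaling, under which the median gene of the FACS comparison lay at -0.03, gave 1 member higher (SLC22A18, at 1.01) and 0 lower in the FACS cells, with SLC22A23 at -0.95. In the proximal tubule it gave 5 higher and 4 lower, against 4 and 6, as SLC22A5 and SLC22A23 lost the call and SLC22A15 gained one, with the median gene at -1.96. A cut-off of 5 TPM left 4 members in the female CP and 4 in the FACS cells, against 7 in each at 0.5 TPM. The signs of uncalled members that changed are given beside their values, apart from SLC22A18 in the female CP, at -0.0046 without mitochondrially encoded genes. Across settings SLC22A17 ran from 0.11 to 0.82 in the FACS comparison and from 0.02 to 0.23 in the female comparison, and its share of the SLC22 sum was 92.2% in the male CP by expected counts. Ordered by count in place of TPM, 2 members changed place in the male CP and 5 in the female CP. In the proximal tubule, where low counts centre on 46, the floor was 3 counts or, in steps, 138.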
